A study of Mus musculus with 15 samples.

Results

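The 10 genes Fos, Fosb, Jun, Junb, Egr1, Egr2, Egr3, Atf3, Ier2 and Hspa1b, which are immediate early and dissociation stress genes, were measured in sorted kidney cells. They were taken as a named list, 10 of 17097 genes measured, and each was read from the probe set with the highest mean over 15 arrays among those annotated to that gene alone. Immediate early genes are switched on within minutes of a growth signal or a stress, by transcription factors that already sit in the cell, and their products then turn on later genes. Fos, Fosb, Jun and Junb encode subunits of the transcription factor AP-1, Atf3 is a stress factor of the same leucine zipper class, Egr1, Egr2 and Egr3 are zinc finger factors, Ier2 is a small nuclear protein, and Hspa1b is an inducible chaperone of the HSP70 family. The same genes are known to be induced while tissue is digested and sorted.

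By their labels the cells were kidney fibroblasts of the C57BL/6 strain, selected in a cell sorter for PDGFra, a receptor found on interstitial cells. There were 5 groups of 3 arrays. Arrays 13 to 15 held cells of uninjured kidney. Arrays 1 to 3, 4 to 6 and 7 to 9 held cells of adult mice taken 3, 7 and 14 days after kidney injury by folic acid, which damages the tubule epithelium. Arrays 10 to 12 held cells of adult mice after 14 days of unilateral ureteral obstruction (UUO), which leads to fibrosis. No source used here states that animals were pooled or that each array had its own animal. A p-value thus sets a difference between groups against the spread of samples within groups, which may be technical variation. Levels are log2 intensities, given as mean ± SD with n = 3. A change is a log2 difference with its standard error (SE), and adjusted p-values are from limma over 13523 genes bright enough to test.

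Markers of tubule epithelium were bright in several groups. The mean of 7 fibroblast markers lay between 5.58 and 6.29 in uninjured arrays and between 7.19 and 9.50 in injured ones. Within this list Col1a1, Col3a1 and Dcn averaged 6.81, 5.57 and 6.30 in uninjured kidney and 9.02 or more in each injured group. Col1a2 and Lum averaged 3.90 and 3.74 in uninjured kidney and from 4.03 to 8.01 in the injured groups. Pdgfrb averaged 9.53 in uninjured kidney and from 9.32 to 10.32 in the injured groups. Pdgfra itself averaged 6.01 in uninjured kidney and from 5.28 to 6.69 in the injured groups, against array medians of 4.93 to 5.06. The mean of 8 measured of 10 proximal tubule markers was 8.59 to 9.95 in uninjured arrays, 6.60 to 6.68 on folic acid day 3, 5.58 to 8.56 on day 7, 7.28 to 9.43 on day 14 and 5.39 to 5.91 in UUO. In bulk RNA, fewer cells of a type and less RNA per cell cannot be told apart.

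The members differed widely in brightness. Hspa1b, Egr1 and Jun were bright throughout, with Hspa1b from 7.37 to 11.33, Egr1 from 7.41 to 10.06 and Jun from 6.73 to 9.27. Fos and Egr2 covered the widest spans, 4.42 and 4.21 log2 units. Egr3 varied least among the genes tested, from 5.90 to 6.55. Fosb was dim in all 15 arrays (3.35 to 4.34, never above the 40th percentile of its array) and was not tested. Junb and Atf3 were near the array median in most arrays. Ier2 passed the brightness limit with only 4 arrays above it, so its changes were measured close to the floor.

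**Figure D1:**
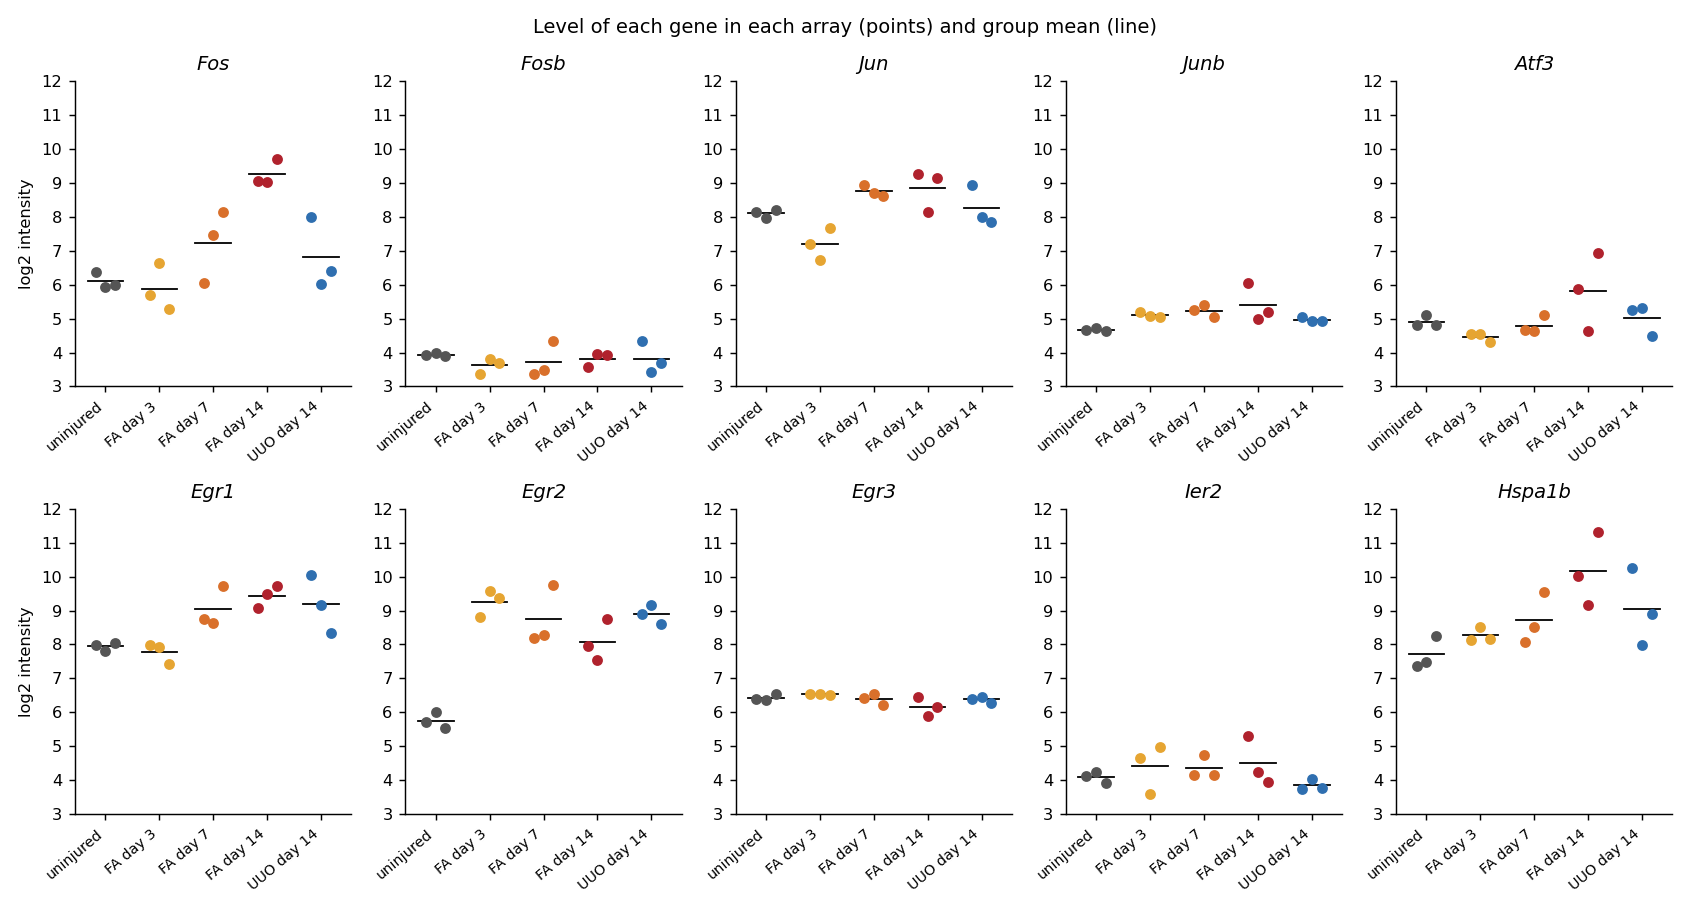
Level of each of the 10 genes, in log2 intensity, in each of the 15 arrays (points, 3 per group in array order; FA is folic acid) with the group mean (line). Fos is highest in the 3 folic acid day 14 arrays (9.03 to 9.71), Egr2 is higher in all 12 injured arrays (7.56 to 9.76) than in uninjured ones (5.54 to 6.01), and Fosb stays at 4.34 or below.

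Of the 9 genes tested, 4 differed among the 5 groups in the moderated F test, namely Egr2 (adjusted p = 0.000561), Fos (0.00755), Jun (0.0236) and Egr1 (0.024). Over all genes tested the share was 15.3%. The change from uninjured kidney was called higher for 1 member on folic acid day 3 (Egr2), 1 on day 7 (Egr2), 4 on day 14 (Fos, Egr1, Egr2 and Hspa1b) and 2 in UUO (Egr1 and Egr2), and lower for none in these 4 comparisons. The shares of all tested genes called higher were 10.6%, 7.50%, 4.20% and 9.07%, those called lower 6.39%, 4.19%, 1.47% and 7.52%, and those called in either direction 17.0%, 11.7%, 5.67% and 16.6%. The median change of the 9 genes was 0.09, 0.65, 0.90 and 0.29 in the same order, beside medians of 0.02, 0.01, 0.02 and -0.01 over all tested genes. These comparisons share the uninjured arrays, so their counts are not independent of one another.

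**Figure D2:**
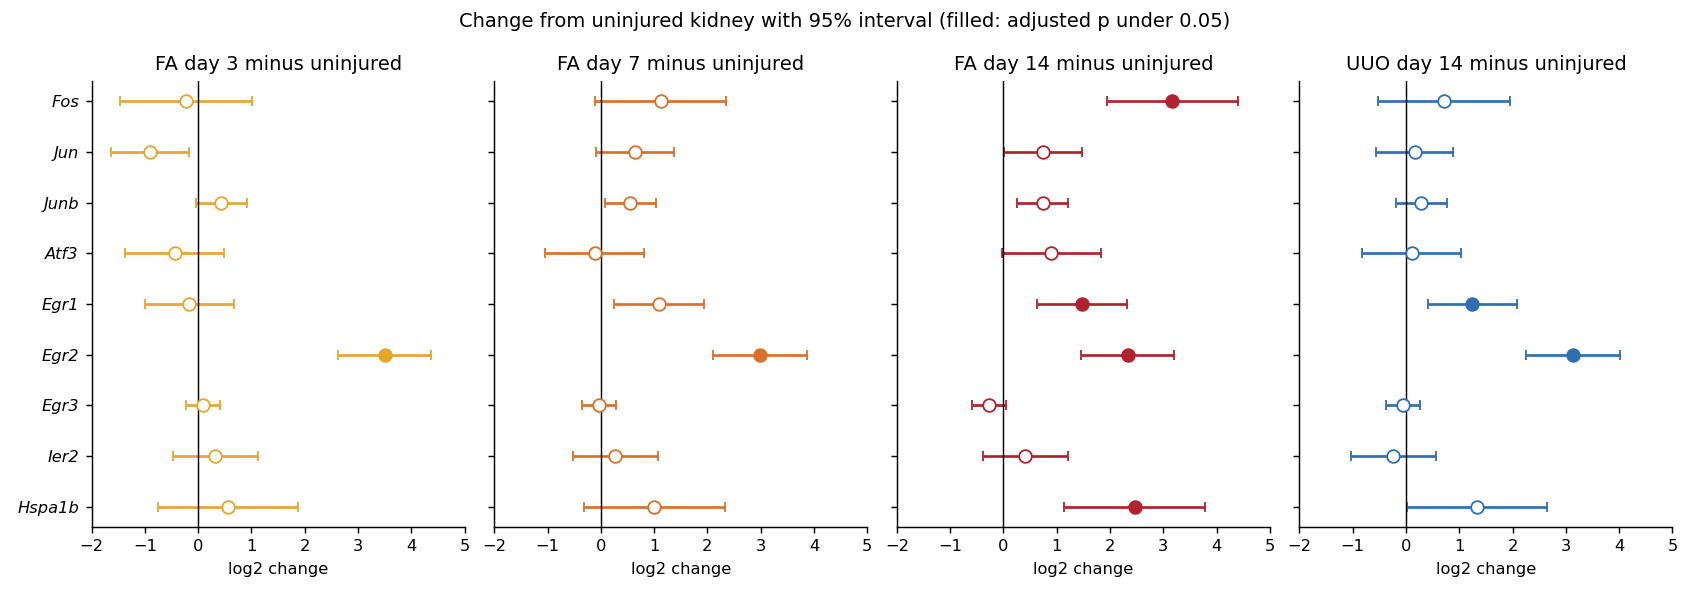
Log2 change from uninjured kidney with its 95% interval for the 9 genes tested, in one panel per injured group; filled points passed an adjusted p of 0.05 and open points did not. Egr2 is filled in all 4 panels, Fos and Hspa1b at folic acid day 14 only, and Egr1 at folic acid day 14 and in UUO.

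Fos, the most labile AP-1 subunit, was the member with the largest rise at folic acid day 14. It measured 6.36, 5.93 and 6.00 in uninjured arrays 13, 14 and 15, and 9.06, 9.03 and 9.71 in day 14 arrays 7, 8 and 9. All 3 day 14 arrays lay above every other array of the study. The rise was 8.98-fold (log2 3.17, SE 0.57, adjusted p = 0.00684), and it passed whichever array was left out (adjusted p at most 0.0341). At day 3 the values of 5.69, 6.63 and 5.29 overlapped the uninjured ones, and the mean was 0.23 lower (SE 0.57, adjusted p = 0.824). At day 7 the arrays were spread out at 6.06, 7.46 and 8.14, a mean 1.12 higher (SE 0.57, adjusted p = 0.227). In UUO, array 10 stood at 8.01 and arrays 11 and 12 at 6.01 and 6.42, within or just above the uninjured range (log2 0.71, SE 0.57, adjusted p = 0.441).

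The differences between injured groups were then tested for Fos. Day 14 was 10.5-fold above day 3 (log2 3.40, SE 0.57, adjusted p = 0.00754). UUO was below folic acid at the same day by log2 -2.45 (SE 0.57, adjusted p = 0.0387), with no overlap between the 3 and 3 arrays. That call was close to the threshold: it ended when any 1 of arrays 1, 5, 7 to 9 and 11 to 15 was left out, with adjusted p-values of at most 0.141, and with only the 6 arrays of these groups (0.115) or no brightness limit (0.0519). Day 14 was 2.04 above day 7 (SE 0.57, adjusted p = 0.292), again without overlap, in a comparison where 0.0518% of all tested genes were called. By mean level the groups ran from folic acid day 3 through uninjured kidney, UUO and day 7 to day 14, and only the last step had no overlap of arrays.

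The sequence before the start of Fos is shown because Fos carried the largest day 14 rise, for comparison with those of Egr2 and Hspa1b. It holds the 140 bases up to the start (RefSeq, GRCm38.p6, chr12:85473750-85473889, plus strand), with a TATAAA box in capitals.
Fos: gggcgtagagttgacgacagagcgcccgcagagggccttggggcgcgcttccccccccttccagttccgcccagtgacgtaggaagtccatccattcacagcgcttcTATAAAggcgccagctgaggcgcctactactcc
TATAAA occurred on either strand in 13.6% of 32851 RefSeq promoter windows of 300 bases, each of which reaches a little past the start. Among the 7 members with a window, it occurred in those of Fos and Junb. Such matches are letters in a window and say nothing about what is bound there.

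Jun, the partner with which Fos forms AP-1, was called in only one of the comparisons, day 14 against day 3. The uninjured arrays gave 8.14, 7.95 and 8.21. The day 3 arrays gave 7.19, 6.73 and 7.66, all lower, with a mean difference of -0.91 (SE 0.34, adjusted p = 0.0862). The day 7 arrays (8.94, 8.71 and 8.60) all lay above the uninjured ones without passing (log2 0.65, SE 0.34, adjusted p = 0.243). At day 14 arrays 7 and 9 (9.27 and 9.13) were high and array 8 (8.14) lay among the uninjured ones (log2 0.75, SE 0.34, adjusted p = 0.234). Day 14 was 3.15-fold above day 3 (log2 1.65, SE 0.34, adjusted p = 0.0223), a call that ended without array 1, 2, 7 or 9 (adjusted p at most 0.0878) and with only the 6 arrays compared (0.118). Day 7 was 1.55 above day 3 (SE 0.34, adjusted p = 0.0620), a difference that passed without array 8 or 10 and with the mean of both probe sets. With the mean of both Jun probe sets, the lower level at day 3 against uninjured kidney passed, as it did after quantile normalization, with only the 6 arrays compared and without array 8. The second probe set had the same order of groups, from 5.82 at day 3 through 7.14 in uninjured kidney to 8.18 at day 14, and correlated with the used one at r = 0.869 over 15 arrays, a description of the same samples.

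Junb and Atf3 were dim, and neither was called in any comparison. Junb, an AP-1 subunit that often opposes Jun, measured 4.67, 4.72 and 4.63 in uninjured arrays. All 12 injured arrays were above these, from 4.92 in UUO arrays 11 and 12 to 6.05 in day 14 array 7. Its largest mean change, at day 14, was 0.74 (SE 0.22, adjusted p = 0.0714). It passed without array 8 (log2 0.95) and with array weights (log2 0.63), and without array 7 it was 0.42 (adjusted p = 0.136). The Junb changes at day 3 (0.44) and day 7 (0.55) passed without array 7. Atf3, which is induced by many kinds of cell stress, was 5.86 and 6.92 in day 14 arrays 7 and 9 and 4.64 in array 8, against 4.80, 5.12 and 4.80 in uninjured arrays. The day 14 mean of 5.81 ± 1.14 was 0.90 higher than uninjured (SE 0.43, adjusted p = 0.262), 1.48 higher without array 8, where it passed (adjusted p = 0.0168), and 0.34 higher without array 9 (adjusted p = 0.649). Atf3 at day 3 was 4.55, 4.54 and 4.32, below every uninjured array, a difference of -0.44 (SE 0.43, adjusted p = 0.529).

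Egr2 was the only member whose change was called in every injured group. This zinc finger factor is best known from Schwann cells and the hindbrain, and is also induced in immune cells and fibroblasts. The uninjured arrays measured 5.71, 6.01 and 5.54. The day 3 arrays measured 8.82, 9.57 and 9.38, the day 7 arrays 8.18, 8.28 and 9.76, the day 14 arrays 7.96, 7.56 and 8.74, and the UUO arrays 8.91, 9.16 and 8.59. The lowest injured array, at 7.56, was well above the highest uninjured one, at 6.01. The rise was 11.3-fold at day 3 (log2 3.50, SE 0.40, adjusted p = 0.000128), 7.93-fold at day 7 (log2 2.99, adjusted p = 0.000559), 5.03-fold at day 14 (log2 2.33, adjusted p = 0.0055) and 8.77-fold in UUO (log2 3.13, adjusted p = 0.000279). All 4 calls held in each of the 24 alternative settings run.

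The order of Egr2 among the folic acid days was the reverse of that of Fos. Day 14 was lower than day 3 by log2 -1.17 (SE 0.40) with no overlap of arrays, and did not pass (adjusted p = 0.153). UUO was 0.80 above folic acid day 14 (SE 0.40, 95% interval -0.07 to 1.68, adjusted p = 0.340). The second Egr2 probe set gave means of 4.44 in uninjured kidney, 9.06, 8.42 and 7.49 on the 3 folic acid days and 8.64 in UUO, and so the same order. Of the 7 members with a promoter window, Egr2 was also the only one whose windows held a CArG box, the core of the serum response element. A box of Egr2 is shown for that reason, with 10 bases on either side (RefSeq, GRCm38.p6, chr10:67537787-67537816, plus strand) and the box in capitals.
Egr2: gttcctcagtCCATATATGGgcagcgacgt
The box shown ends 63 bases before one of the annotated starts. Another Egr2 window held a different box, CCTTTTTTGG, which ends 63 bases before its own start. A box of this kind was present in 1.63% of all windows and in 1.81% of all genes with a window. Of the 7 members with a window (Fos, Fosb, Jun, Junb, Atf3, Egr2 and Hspa1b) 1 had it. Egr2 had 5 windows and each of the others 1, so Egr2 had more sequence to match. Sequence outside the windows was not searched. No window was at hand for Egr1, Egr3 and Ier2.

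Egr1, which is induced by the same signals as Fos, was the member besides Egr2 that rose in both models at day 14. Its uninjured values were 7.98, 7.82 and 8.04. Day 3 did not separate from these, at 8.00, 7.93 and 7.41 (log2 -0.17, SE 0.39, adjusted p = 0.812). The day 7 arrays (8.76, 8.63 and 9.72) and the day 14 arrays (9.07, 9.48 and 9.73) were all above the uninjured ones, as were the UUO arrays (10.06, 9.17 and 8.35). The change was 1.09 at day 7 (SE 0.39, adjusted p = 0.0906, passing without array 10 or 12), 1.48 at day 14 (SE 0.39, adjusted p = 0.0446) and 1.25 in UUO (SE 0.39, adjusted p = 0.0452). UUO and folic acid day 14 differed by -0.23 (SE 0.39, 95% interval -1.07 to 0.61, adjusted p = 0.857), which does not show equal levels. Day 14 was 3.12-fold above day 3 (log2 1.64, SE 0.39, adjusted p = 0.0419).

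All 3 Egr1 calls lay just under the threshold. The call at day 14 against uninjured kidney ended when any 1 of arrays 1 to 4, 7 to 9, 11 and 13 to 15 was left out (adjusted p at most 0.139) and after quantile normalization (log2 1.21, adjusted p = 0.0953) or with no brightness limit (0.0508). That in UUO ended without any 1 of arrays 1 to 3, 8 to 11 and 13 to 15 (adjusted p at most 0.155), after quantile normalization (0.103), with only the 6 arrays compared (0.0758) and with no brightness limit (0.0534). Without UUO array 10 the Egr1 change was 0.81, down from 1.25. The call at day 14 against day 3 ended without any 1 of arrays 1 to 3, 7 to 9, 11 and 13 to 15 (adjusted p at most 0.138) and with no brightness limit (0.0527). Egr3, a relative of Egr1, was not called in any comparison, and its group means ran from 6.17 ± 0.28 at folic acid day 14 to 6.53 ± 0.02 at day 3. Its 95% intervals against uninjured kidney lay within -0.58 to 0.41 in all 4 injured groups, so a change of log2 1 in either direction was outside them.

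Hspa1b, the inducible heat shock protein that is often used as a sign of cell handling, was brightest at folic acid day 14. Uninjured arrays 13, 14 and 15 measured 7.37, 7.50 and 8.26, and day 14 arrays 7, 8 and 9 measured 10.02, 9.17 and 11.33. The groups did not overlap, and the rise was 5.51-fold (log2 2.46, SE 0.61, adjusted p = 0.0345). Arrays within a group were far apart: UUO array 10 reached 10.26 while arrays 11 and 12 gave 7.98 and 8.89, and day 7 array 6 reached 9.56 while arrays 4 and 5 gave 8.07 and 8.52. The UUO mean was 1.33 above uninjured (SE 0.61, adjusted p = 0.164), the day 7 mean 1.00 (SE 0.61, adjusted p = 0.321) and the day 3 mean 0.56 (SE 0.61, adjusted p = 0.577). The call at day 14 ended when any 1 of arrays 7, 9 and 13 to 15 was left out (adjusted p at most 0.117), with only the 6 arrays compared (0.0730), with the mean of the 3 Hspa1b probe sets (0.0510) and with the most variable of them (0.0945).

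The other 2 Hspa1b probe sets separated the day 14 arrays more sharply. In one of them arrays 7 and 9 measured 7.16 and 8.28 and array 8 measured 4.18, within the uninjured values of 4.14 to 4.29. In the other, arrays 7 and 9 measured 7.11 and 8.48 and array 8 measured 4.96, against 4.26 to 4.70. Hspa1b has a near-identical neighbour, Hspa1a, that was not analysed here, and whether these probe sets separate the pair was not tested. The 140 bases before the start of each gene are shown because they illustrate how alike the copies are (RefSeq, GRCm38.p6, minus strand, chr17:34959239-34959378 and chr17:34972157-34972296), with the heat shock element core GAANNTTC in capitals.
Hspa1b: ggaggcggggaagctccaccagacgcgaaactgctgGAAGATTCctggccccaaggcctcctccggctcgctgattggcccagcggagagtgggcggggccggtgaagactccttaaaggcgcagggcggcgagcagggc
Hspa1a: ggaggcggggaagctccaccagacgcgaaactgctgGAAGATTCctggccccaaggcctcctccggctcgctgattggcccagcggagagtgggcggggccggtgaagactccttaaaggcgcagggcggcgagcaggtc
Over the full windows of 300 bases the copies were identical at 296 positions. GAANNTTC, which reads the same on both strands, occurred in 7.86% of all windows, and among the 7 members with a window in those of Hspa1b and Jun. No member's window held TGACGTCA, the cyclic AMP response element (1.79% of all windows), or TGANTCA, an AP-1 site (7.81%), and that of Fosb held GCGNGGGCG, an EGR site (5.55%). Both strands were searched in each case, for full matches only, so shorter or altered forms of a site were not counted.

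Ier2 and Fosb gave little to compare. Ier2 ranged from 3.61 in day 3 array 2 to 5.30 in day 14 array 7, and its changes from uninjured kidney ran from -0.24 in UUO to 0.41 at day 14, with an SE of 0.37 and adjusted p-values of 0.587 or more. Fosb, a relative of Fos, had group means of 3.62 to 3.94.

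Single arrays within a group differed widely. The mean of the 9 tested genes, each centred on its own average over 15 arrays, was 1.03 in day 14 array 9 and 0.83 in array 7, followed by 0.56 in UUO array 10 and 0.52 in day 7 array 6. Day 14 array 8 stood at 0.17. The uninjured arrays lay between -0.67 and -0.63 and the day 3 arrays between -0.32 and -0.27. Arrays 7, 9 and 10 held the 3 highest values of Hspa1b, and Fos was high in 7, 8 and 9. Across the 15 arrays the members ran from closely alike to opposed: among 36 pairs Pearson's r ranged from -0.63 (Fos and Egr3) to 0.86 (Fos and Hspa1b), with a median of 0.31, and 27 pairs were above 0. After subtracting group means the Fos and Hspa1b pair was at 0.77, Fos and Egr1 at 0.70, and Fos and Jun at 0.12. The arrays share groups and cell mixture, so these values describe the samples and are not a test.

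**Figure D3:**
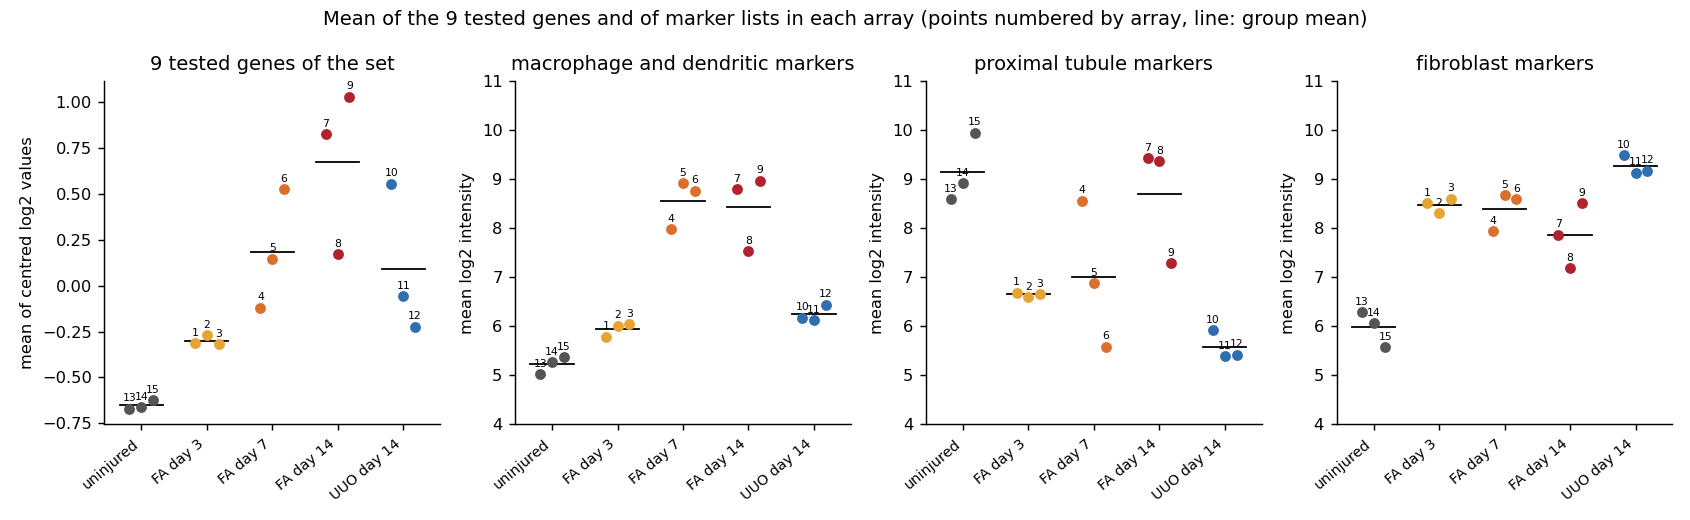
Mean of the 9 tested genes (left, centred log2 values) and mean log2 intensity of the macrophage and dendritic, proximal tubule and fibroblast marker lists in each array (points with array numbers; line: group mean). Arrays 7 and 9 have the highest mean of the 9 genes (0.83 and 1.03), and macrophage markers are highest at folic acid days 7 and 14 (7.52 to 8.97).

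Markers of other cells moved with some of these groups. All 15 macrophage and dendritic markers were measured, and their mean was 5.02 to 5.38 in uninjured arrays, 5.79 to 6.04 at day 3, 7.97 to 8.92 at day 7, 7.52 to 8.97 at day 14 and 6.12 to 6.44 in UUO. Day 14 array 8 was the lowest of its group for Hspa1b, Atf3, Jun, Junb, Egr2, Egr3 and, narrowly, Fos. It was not the lowest for Egr1, Ier2 and Fosb. Array 8 was also the lowest of its group for the mean of macrophage markers (7.52 against 8.79 and 8.97) and fibroblast markers (7.19 against 7.87 and 8.51). The same held for neutrophil markers (5.21 against 5.78 and 6.96) and lymphocyte markers (4.42 against 4.73 and 4.46). Array 8 was not the lowest for the other 4 lists. UUO array 10, the highest of its group for Hspa1b (10.26), had macrophage markers at 6.17, between arrays 11 and 12 (6.12 and 6.44). Its fibroblast markers were the highest of the group (9.50). Its neutrophil and lymphocyte markers were the lowest (4.98 and 4.38). The mean of 4 measured of 5 neutrophil markers was 6.96 in array 9 and from 4.75 to 5.80 in all other arrays. Lymphocyte markers were dim everywhere (4.29 to 4.73, 5 of 6 measured). The part of these cells in the levels of Fos, Egr1, Egr2 and Hspa1b was not tested. The 9 distal nephron markers averaged 8.14 to 8.71 in uninjured arrays and 5.43 to 5.79 in UUO, with day 14 at 7.80 to 8.62. The 6 endothelial markers averaged 6.01 to 7.40 and 4 measured of 5 pericyte and smooth muscle markers 6.91 to 8.41 over all arrays. The 3' and 5' control probe sets of Gapdh differed by 2.88 to 3.29 log2 units on day 14, 1.77 to 2.98 on day 3, 2.38 to 3.00 on day 7, 2.49 to 3.44 in UUO and 2.69 to 3.56 in uninjured arrays. The lowest of these values was that of day 3 array 2. Day 3 arrays 1 and 3 (2.98 and 2.53) lay within the ranges of other groups. For actin the same difference was -0.36 to -0.17 on day 3, -0.53 to -0.33 on day 7 and -0.53 to -0.04 over all arrays. Day 3 was the base of day 14 calls of Fos, Jun and Egr1. The part of these differences in those calls was not tested.

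Of 64 genes on 5 related lists 55 were measured and 52 tested. Against uninjured kidney 13 were higher and 4 lower at day 3, 10 higher and none lower at day 7, 6 higher and none lower at day 14, and 8 higher and 1 lower in UUO. The shares of all tested genes called higher were 10.6%, 7.50%, 4.20% and 9.07%, and those called lower 6.39%, 4.19%, 1.47% and 7.52%. The same shares stand beside the counts of single lists against uninjured kidney below. The median change of the 52 genes was 0.23, 0.16, 0.16 and 0.22, beside 0.02, 0.01, 0.02 and -0.01 over all tested genes. Day 3, where neither Fos nor Egr1 was called, held the largest number of related genes called, beside the largest share of all genes called. Of the 46 related calls, 18 held in each of 24 alternative settings, and for the other 28 the settings that ended the call, or their number, stand beside the gene.

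Dusp1 and Nr4a1, both classical early genes, had their highest group mean on day 3. Dusp1, a phosphatase that shuts off stress kinases, measured 10.01, 9.71 and 9.93 on day 3 against 9.17, 8.84 and 8.98 in uninjured kidney (log2 0.89, SE 0.27, adjusted p = 0.0429, a call that ended in 9 settings, among them without array 1, 2, 3, 5, 12, 13, 14 or 15). Nr4a1, an orphan nuclear receptor, measured 6.85, 6.80 and 7.04 against 5.54, 5.27 and 4.76 (log2 1.71, SE 0.42, adjusted p = 0.0149), and its call ended only without array 15 (0.0658). For both genes the day 3 arrays lay above all uninjured ones.

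The list of other immediate early factors had 3, 4, 2 and 1 of 9 tested genes higher on folic acid days 3, 7 and 14 and in UUO, and none lower. Myc, a growth regulator, rose by 1.75 on day 3 (SE 0.27, adjusted p = 0.00104) and by 1.35 on day 7 (SE 0.27, adjusted p = 0.00792, ended with only the 6 arrays compared). It was lower on day 14 than on day 3 (log2 -1.17, SE 0.27, adjusted p = 0.0409), a call that ended with only the 6 arrays compared and when any 1 of arrays 1 to 3 and 7 to 15 was left out (adjusted p at most 0.136). Klf10, a factor induced by TGF-beta, rose by 2.30 on day 3 and 1.71 on day 7 (adjusted p = 0.000701 and 0.00675), and by 1.36 on day 14 (adjusted p = 0.0355, ended without array 3, 7, 8, 9, 13, 14 or 15). Klf4, a zinc finger factor, rose on day 7 (log2 1.20, adjusted p = 0.0143, ended in 5 settings, among them without array 5, 14 or 15). Bhlhe40, a repressor linked to the clock and to hypoxia, rose on day 14 (log2 1.20, adjusted p = 0.00555), in UUO (log2 1.12, adjusted p = 0.00311) and on day 7 (log2 0.77, adjusted p = 0.0325, ended in 6 settings, among them without array 4, 6, 13 or 15).

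**Figure D4:**
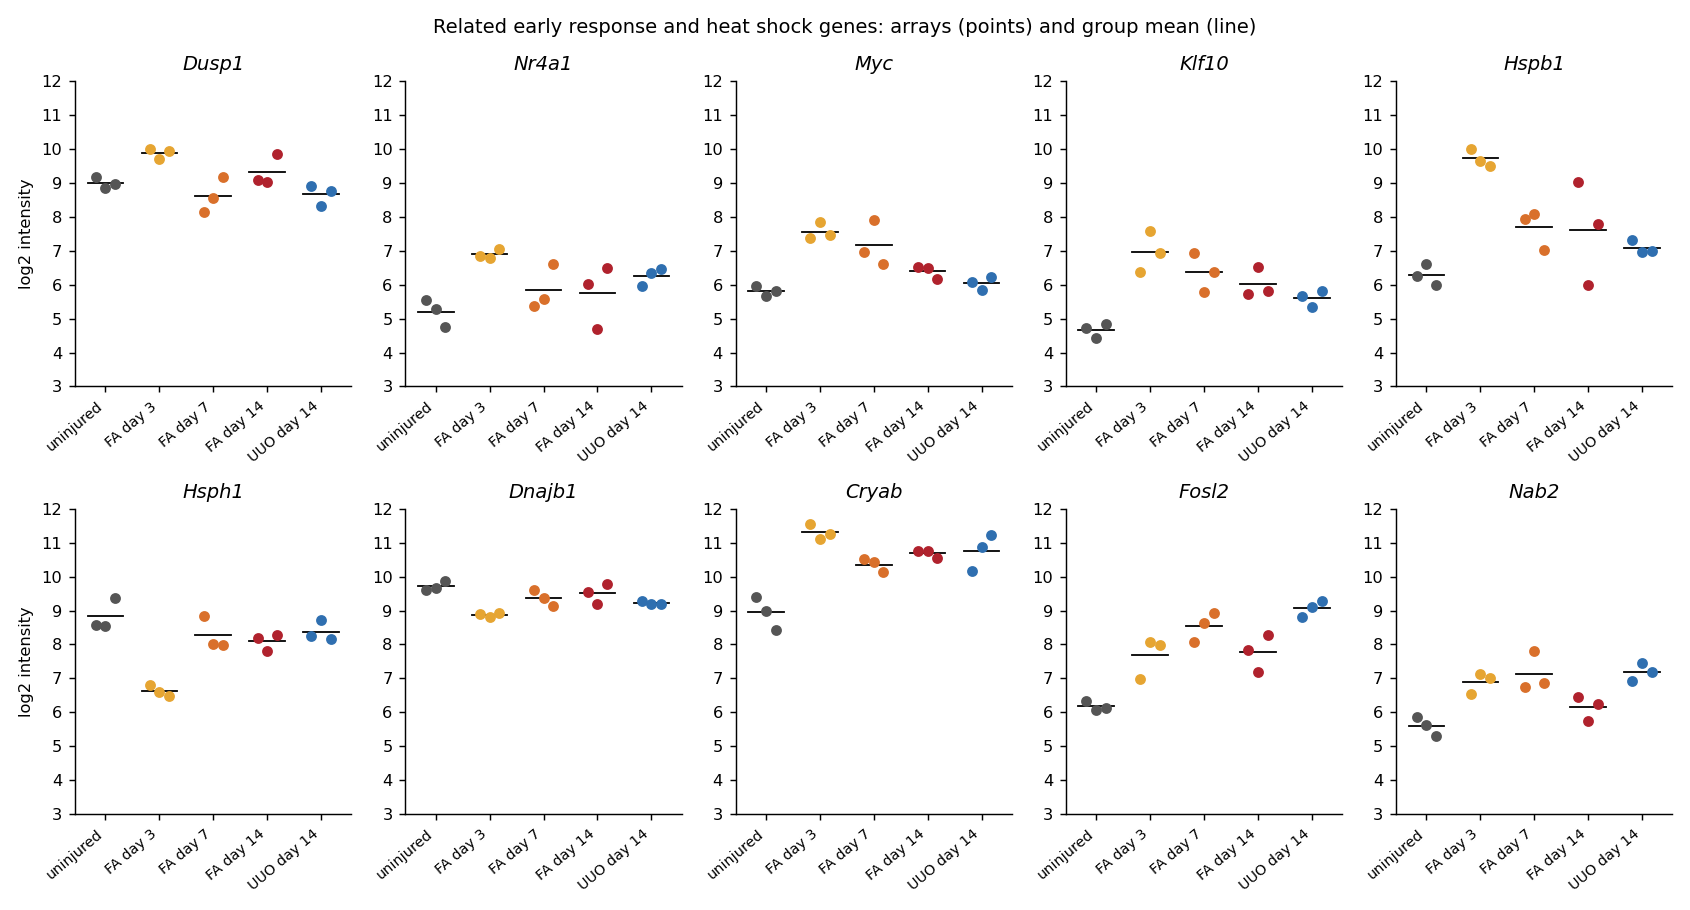
Level in log2 intensity of 10 related genes in each array (points, in array order; FA is folic acid) with the group mean (line). Dusp1, Nr4a1 and Hspb1 are highest at folic acid day 3, where Hsph1 and Dnajb1 are lowest, and Fosl2 has its highest mean in UUO (arrays at 8.81 to 9.29).

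Among AP-1 partners, 2 of 10 tested genes rose and 2 fell on day 3, 2 rose on day 7, 3 rose on day 14, and 4 rose and 1 fell in UUO. Fosl2, a Fos relative with a more lasting product, rose in each group, by 1.50, 2.36, 1.59 and 2.89 (SE 0.33, adjusted p = 0.00837, 0.000747, 0.015 and 0.000129). Its call ended with the mean of its probe sets on day 3 and on day 14, and on day 14 also without array 7, 9, 14 or 15 (adjusted p at most 0.124). Jdp2, a repressor of AP-1, rose by 2.79, 1.89, 1.67 and 2.06 (SE 0.32, adjusted p = 0.00013, 0.0027, 0.0105 and 0.00105), and only the day 14 call ended, with only the 6 arrays compared (0.0679). Atf4, a factor of the integrated stress response, rose on day 14 (log2 0.97, adjusted p = 0.0472, ended in 17 settings, among them without any 1 of arrays 1 to 7, 9, 11 and 13 to 15) and in UUO (log2 0.94, adjusted p = 0.0258, ended in 7, among them without array 11, 12, 14 or 15). The small Maf protein Maff rose in UUO (log2 1.03, adjusted p = 0.0354, ended in 5, among them without array 11, 12, 14 or 15). Mafg, another small Maf protein, fell on day 3 (log2 -0.91, adjusted p = 0.00727) and in UUO (log2 -0.90, adjusted p = 0.0077). Jund, the most constant Jun protein, fell on day 3 (log2 -0.59, adjusted p = 0.0474), a call that ended in 18 settings, among them without any 1 of arrays 2, 3 and 6 to 15.

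Of 15 tested feedback inhibitors 4 rose on day 3, 2 on day 7, none on day 14 and 1 in UUO. Nab2, which binds EGR proteins and represses their targets, rose by 1.30 on day 3, 1.54 on day 7 and 1.59 in UUO (SE 0.29, adjusted p = 0.00935, 0.00531 and 0.00287), in all settings run. Nfkbia, the inhibitor of NF-kappaB, rose on day 3 (log2 1.10, adjusted p = 0.0237, ended in 4 settings, among them without array 2, 14 or 15) and on day 7 (log2 1.06, adjusted p = 0.0376, ended without any 1 of arrays 4 to 6 and 13 to 15). The receptor signalling inhibitor Spry2 rose on day 3 with the used probe set (log2 0.88, adjusted p = 0.0385), but its change was -0.32 with the most variable one. The call ended in 10 settings, among them quantile normalization, only the 6 arrays compared, the mean of probe sets and without array 1, 2, 3, 10, 14 or 15. On day 14 the smallest p-values in this list were those of Nfkbia (log2 0.89, adjusted p = 0.108) and Btg2, an inhibitor of growth (log2 0.71, adjusted p = 0.230).

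Of 9 tested upstream genes 2 rose on day 3, 1 on day 7, none on day 14 and 1 in UUO. Elk3, an ETS partner of serum response factor, rose on day 3 (log2 2.26, adjusted p = 0.00946), on day 7 (log2 2.02, adjusted p = 0.0236) and in UUO (log2 2.36, adjusted p = 0.00734). All 3 calls ended with the mean of its probe sets, with changes down to 0.80, and the day 7 call also with only the 6 arrays compared and without array 5, 6, 14 or 15. Mrtfb, a coactivator of serum response factor, rose on day 3 (log2 0.45, adjusted p = 0.0428, ended in 15 settings, among them without any 1 of arrays 1 to 3, 8, 9, 11 and 13 to 15). On day 14 the smallest p-values were those of Elk3 (log2 1.55, adjusted p = 0.102) and serum response factor itself, Srf (log2 -0.41, adjusted p = 0.440).

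The heat shock genes did not all move in one direction. Of 9 tested, 2 rose and 2 fell on day 3, and 1 rose on day 7, on day 14 and in UUO. Hsph1, a large partner of HSP70, was 6.80, 6.60 and 6.47 on day 3 against 8.57, 8.54 and 9.38 in uninjured kidney (log2 -2.21, SE 0.28, adjusted p = 0.000258). The cochaperone Dnajb1 also fell there (log2 -0.84, adjusted p = 0.00438), except with the mean or the most variable of its probe sets. The small heat shock protein Hspb1 measured 5.98 to 6.61 in uninjured arrays and 9.51 to 10.01 on day 3 (log2 3.44, SE 0.56, adjusted p = 0.0014). Cryab, another small heat shock protein, rose by 2.36, 1.41 and 1.74 on the folic acid days and 1.80 in UUO (SE 0.28, adjusted p = 0.000141, 0.00651, 0.00313 and 0.000965). With the most variable Cryab probe set the calls on days 7 and 14 and in UUO ended, and with the mean of its probe sets those on day 14 and in UUO. On day 14 arrays 7 and 9 stood apart from array 8 for Hspb1 (9.03 and 7.77 against 5.99) but not for Cryab (10.76 and 10.55 against 10.76).

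Between injured groups few genes of either kind were called. Against day 3, day 14 had 3 members higher (Fos, Jun and Egr1) and none lower, where 1.22% of all tested genes were called higher, 1.83% lower and 3.05% in either direction. Against folic acid day 14, UUO had 1 member lower (Fos) and none higher, where 1.75% of all tested genes were called lower, 1.28% higher and 3.03% in either direction. Between folic acid days 14 and 7 no member passed in limma and 3 of 9 had an unadjusted p under 0.05, as did 8.83% of all tested genes. By adjusted p, 0.00739% of all tested genes were called higher, 0.0444% lower and 0.0518% in either direction. Between days 7 and 3 no member passed either, with 3 of 9 under an unadjusted p of 0.05, as were 11.1% of all tested genes. By adjusted p, 0.695% of all tested genes were called, 0.274% higher and 0.422% lower. Among the 52 related genes, besides Myc, Hsph1 was higher on day 14 (log2 1.46, adjusted p = 0.0164, ended without array 2 or 3) and on day 7 (log2 1.66, adjusted p = 0.0214, ended in 6 settings, among them without any 1 of arrays 1 to 5) than on day 3. The mitochondrial cochaperone Hspe1 was lower in UUO than on folic acid day 14 (log2 -0.99, SE 0.23, adjusted p = 0.0381, ended in 10 settings, among them without any 1 of arrays 1, 7 to 12 and 14).

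The genes most like the mean of the 9 tested members over the 15 arrays were Tiparp (Pearson's r 0.913), Il18r1 (0.867), Rgs1 (0.866), Ets2 (0.853) and Bhlhe40 (0.853). Tiparp rose from a mean of 6.08 in uninjured kidney to 6.91 at day 14 and peaked at 7.27 in array 9. These were picked as the closest of all tested genes outside the set, so the likeness is a description.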

How the data were processed

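Total RNA of the sorted cells was amplified and labelled with biotin, per the labels' protocols. The authors deposited 1 table of log2 values for 45141 probe sets on 15 arrays. RMA, affy and limma are listed in the submitters' processing notes, with no version and no order, and detection calls are not used here. No further normalization was applied. In the platform annotation, which can be old, 28898 probe sets named 1 gene, 551 several and 15692 none.

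A gene was tested where its probe set passed the 40th percentile of the array on 3 or more arrays. The 5 group means were estimated together with limma 3.58.1 (R 4.3.3; lmFit and eBayes, 2-sided, 10 residual degrees of freedom). The procedure was tested on simulated data with independent noise and no cell mixture, which does not show how it performs on these samples. P-values were adjusted by Benjamini-Hochberg within each of 8 comparisons and an F test, over all genes tested, and a call is an adjusted p under 0.05. All comparisons with uninjured kidney share its 3 arrays. Intervals are 95%, from the moderated SE. Settings varied were quantile normalization or centring on medians, limma's trend with robust estimation, weighting of arrays, fits of the 6 arrays compared, no brightness limit or the 60th percentile, the mean or the most variable of a gene's probe sets, and each array left out.

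The members, related lists and marker lists were chosen with earlier results of these data known. From a related list every called gene is named, or on a comparison with none the 2 with the smallest p. The 5 genes most like the set have the highest Pearson's r with its mean, provisional symbols left out. Promoters are from RefSeq (GRCm38.p6), and the stretch of Egr2 was chosen after its boxes were seen. Plots were drawn with matplotlib 3.10.9.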

Additional observations from a re-analysis of the deposited data

Results flagged for a closer look

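For 3 genes the change differed between injured groups by a test of that difference, which is the direct contrast of the injured groups. Fos was lower in UUO than at folic acid day 14 by log2 -2.45, and higher at folic acid day 14 than at day 3 by 3.40. Jun was higher at day 14 than at day 3 by 1.65, and Egr1 by 1.64. In each of these contrasts the 3 arrays of one group did not overlap the 3 of the other. The contrasts were listed because they were called, so the lack of overlap is a description and no further support. The share of all genes without overlap is not given here. With 3 arrays a group, single arrays were not tested as outliers.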

How the results depend on the processing

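The number of members called was set against 24 alternatives. On folic acid day 3 against uninjured kidney it was 1, and 2 with quantile normalization, only the 6 arrays compared or the mean of probe sets. On folic acid day 14 against uninjured kidney it was 4, and 5 with array weights. It was 3 there with quantile normalization, only the 6 arrays compared, no brightness limit, or the mean or most variable of probe sets. In UUO against uninjured kidney it was 2, and 1 with quantile normalization, only the 6 arrays compared or no brightness limit. For UUO against folic acid day 14 it was 1, and 0 with only the 6 arrays compared or no brightness limit. For folic acid day 14 against day 3 it was 3, and 2 with only the 6 arrays compared or no brightness limit. Between folic acid days 7 and 3 it was 0, and 1 (Jun) with the mean of probe sets. In the F test it was 4, and 5 with array weights. Leaving out 1 array gave 1 to 2 calls on day 3, 1 to 2 on day 7, 2 to 5 on day 14 and 1 to 2 in UUO, each against uninjured kidney. It gave 0 to 1 for UUO against folic acid day 14, 1 to 3 for day 14 against day 3, 0 for day 14 against day 7, 0 to 1 for day 7 against day 3 and 2 to 6 in the F test. Against uninjured kidney, 2 members were called on day 14 without array 7, 9, 13, 14 or 15, and 5 without array 8. Of the 12 single calls of members, 6 held whichever array was left out (4 of Egr2 and 2 of Fos). Over the 72 changes of single members, 1698 values under the alternatives gave 62 calls that ended and 15 that were gained, and no called value changed sign. Among related genes, the change of Spry2 on folic acid day 3 turned to -0.32 with the most variable probe set. The cause of these differences was not tested.

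No paired analysis was possible because the running numbers of the arrays are not shared between groups. Fosb, Ier2, Junb and Atf3 lay near or below the middle of most arrays. Whether the Hspa1b probe sets also read Hspa1a was not tested.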
